A study of Homo sapiens with 12 samples.

Results

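Serglycin, the syndecans, the glypicans, CSPG4 and the hyaluronan synthase HAS2 were followed here across 12 expression arrays. The 9 genes (SRGN, SDC1, SDC2, SDC4, GPC1, GPC3, GPC4, CSPG4 and HAS2) are 9 of the 11963 genes that the arrays measured with a probe set naming 1 gene. They were listed by name and chosen by their differences in both comparisons of these data, which were already known. Those differences are therefore given as a description, and the counts of members called carry no weight as evidence.

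Total RNA came from the MDA-MB-231 line, which was established from a breast cancer and lacks hormone receptors and HER2 amplification. All cells were stably transfected and kept under G-418, an antibiotic that kills cells without the construct. On the shRNA side of the study, 3 arrays carried RNA of cells with a scramble shRNA and 3 of cells with an shRNA against LSD2 (KDM1B, a flavin-dependent histone H3 lysine 4 demethylase). On the vector side, 3 arrays carried cells with an eGFP/Flag vector and 3 cells with an LSD2/eGFP/Flag vector. Per the labels the 3 arrays of a group are biological replicates. Nothing states whether a stable line was 1 clone or a pool, or whether replicates came from separate transfections, so the spread between arrays may not include differences between lines.

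Proteoglycans are core proteins that carry long sulfated sugar chains, mainly heparan sulfate or chondroitin sulfate, and the chains bind growth factors, chemokines, proteases and matrix proteins. Syndecans span the membrane, glypicans are tied to it by a lipid anchor, and CSPG4 (NG2) is a large transmembrane chondroitin sulfate proteoglycan. Serglycin is the proteoglycan of secretory granules in blood cells and is also secreted by some carcinoma cells. HAS2 makes hyaluronan, an unsulfated chain with no core protein, at the plasma membrane, and CD44 is its main cell-surface receptor.

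The deposited values of the shRNA and vector arrays had different distributions, with array medians of 6.65 to 6.71 against 7.03 to 7.18 on the log2 scale, so a gene was compared only within its own set of 6 arrays. Arrays of 1 group correlated at 0.996 to 0.998 over all genes. LSD2 shRNA and scramble arrays correlated at 0.991 to 0.994, and LSD2/eGFP/Flag and eGFP/Flag arrays at 0.904 to 0.908. No probe set naming KDM1B alone was available, so the targeted gene could not be checked.

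Markers of the labelled cell line did not match the label on the LSD2/eGFP/Flag arrays. The mean of 18 genes typical of MDA-MB-231 and other basal B breast cancer lines was 10.86 to 10.98 on scramble arrays, 11.02 to 11.11 on LSD2 shRNA arrays and 11.76 to 11.79 on eGFP/Flag arrays. It was 6.79 to 6.98 on the arrays labelled LSD2/eGFP/Flag. There 17 of the 18 genes fell by the fit, where 26.1% of all genes fell, and S100A4 differed by -0.07. Mean log2 levels of CD44 were 12.41 and 3.99 with eGFP/Flag and LSD2/eGFP/Flag, those of ANXA1 13.25 and 4.65, and those of AXL 12.66 and 5.21. The mean of 11 neural and neurofilament markers was 5.73 to 5.80 on eGFP/Flag arrays and 7.69 to 7.76 on LSD2/eGFP/Flag arrays. Every difference in the vector comparison rests on these 3 arrays, and the part of this marker change in the members' differences was not tested. With all vector arrays left out, the same 3 of the 9 members were called in the shRNA comparison as with them in.

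**Figure D1:**
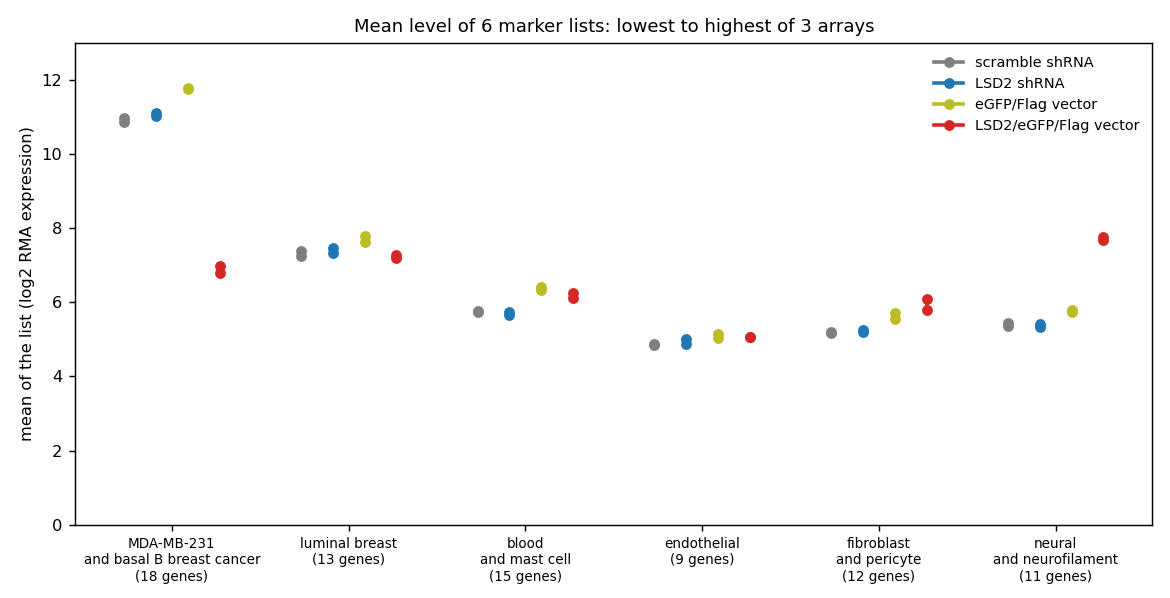
Mean log2 RMA level (vertical axis) of 6 marker lists (horizontal axis), drawn from the lowest to the highest of the 3 arrays of each group. The MDA-MB-231 list sits between 10.86 and 11.79 in 3 groups and between 6.79 and 6.98 on LSD2/eGFP/Flag arrays, and the neural list is highest on those arrays.

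Start-site windows from RefSeq (build GRCh38.p14, from 250 bases before to 50 bases after the annotated start) were read for 5 of the 9 genes. Windows of the other members were not examined. The windows of 3 of the 5 genes are shown: SDC4, which was lower on the LSD2/eGFP/Flag arrays, and GPC4 and CSPG4, which were higher. SDC1 and GPC1 were also lower there, and their windows are described without the sequence. Each runs 5′ to 3′ on the gene's own strand, with capitals for GC boxes (GGGCGG on either strand, overlapping matches kept). SDC4 lies at chr20:45348375-45348674 on the minus strand, GPC4 at chrX:133415440-133415739 on the minus strand, and CSPG4 at chr15:75712799-75713098 on the minus strand.
SDC4: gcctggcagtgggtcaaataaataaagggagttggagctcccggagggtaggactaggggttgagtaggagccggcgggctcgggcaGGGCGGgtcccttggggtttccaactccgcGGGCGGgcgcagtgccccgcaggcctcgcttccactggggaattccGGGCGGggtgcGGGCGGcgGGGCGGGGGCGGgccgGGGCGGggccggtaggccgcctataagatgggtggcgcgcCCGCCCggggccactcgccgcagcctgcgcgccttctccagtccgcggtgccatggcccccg
GPC4: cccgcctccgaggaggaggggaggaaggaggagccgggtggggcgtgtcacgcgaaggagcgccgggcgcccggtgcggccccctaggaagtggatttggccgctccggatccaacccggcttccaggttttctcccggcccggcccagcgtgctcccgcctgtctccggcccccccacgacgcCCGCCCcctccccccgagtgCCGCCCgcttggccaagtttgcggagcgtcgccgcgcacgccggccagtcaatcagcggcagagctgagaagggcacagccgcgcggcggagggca
CSPG4: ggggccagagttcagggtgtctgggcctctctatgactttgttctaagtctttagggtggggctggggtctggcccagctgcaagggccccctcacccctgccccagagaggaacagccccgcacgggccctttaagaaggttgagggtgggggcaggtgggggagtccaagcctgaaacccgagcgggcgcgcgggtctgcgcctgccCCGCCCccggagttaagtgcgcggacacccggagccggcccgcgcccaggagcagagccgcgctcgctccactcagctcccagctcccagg
The SDC4 window held 8 GC boxes and 33 CpG dinucleotides, the GPC4 window 2 and 37, and the CSPG4 window 1 and 19. The GPC1 window, not shown, held 4 GC boxes and 45 CpG, more CpG than 96.5% of all windows. The 2 windows listed for SDC1 held 1 GC box each, with 27 and 23 CpG. Over all 35116 windows of this length in the table, 45.0% held at least 1 GC box and the median was 14 CpG. No window of the 5 genes held an AP-1 site (TGANTCA) or a TATA box (TATAAA), which 7.71% and 11.5% of all windows held. Each window of the 5 genes held at least 1 GC box.

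Serglycin had the largest difference of the 9 genes in both comparisons, in opposite directions. Its brighter probe set read 8.23, 8.16 and 9.17 on the scramble arrays and 11.68, 11.40 and 11.90 on the LSD2 shRNA arrays (log2 values here and below). It read 11.03, 11 and 10.61 on the eGFP/Flag arrays and 3.90, 3.59 and 3.63 on the LSD2/eGFP/Flag arrays. All LSD2 shRNA arrays were above all scramble arrays, scramble array 3 was the highest of its group, and all LSD2/eGFP/Flag arrays were far below all eGFP/Flag arrays. The mean was higher by 3.14 ± 0.23 (SE of the fit, n = 3 per group) in LSD2 shRNA cells, which is 8.83-fold, with an adjusted p of 5.2e-06 by limma with Benjamini-Hochberg adjustment. Against eGFP/Flag, the difference was -7.17 ± 0.23 (adjusted p = 8.3e-12 by limma).

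The second SRGN probe set gave the same directions with another size in the vector comparison. It read 6.98, 6.84 and 7.61 with scramble and 10.44, 10.19 and 10.99 with LSD2 shRNA, a difference of 3.40 ± 0.20. It read 7.87, 7.77 and 7.80 with eGFP/Flag and 4.16, 4.24 and 4.46 with LSD2/eGFP/Flag, a difference of -3.52 ± 0.20. The vector difference of SRGN was thus 7.17 by the size of the brighter probe set and 3.52 by the other, with no overlap of arrays in either. RMA values carry no detection calls, and on LSD2/eGFP/Flag arrays the brighter probe set lay at the percentiles 1.19 to 3.48 of all genes of its array, so the fold of 144 has no measured floor under it.

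**Figure D2:**
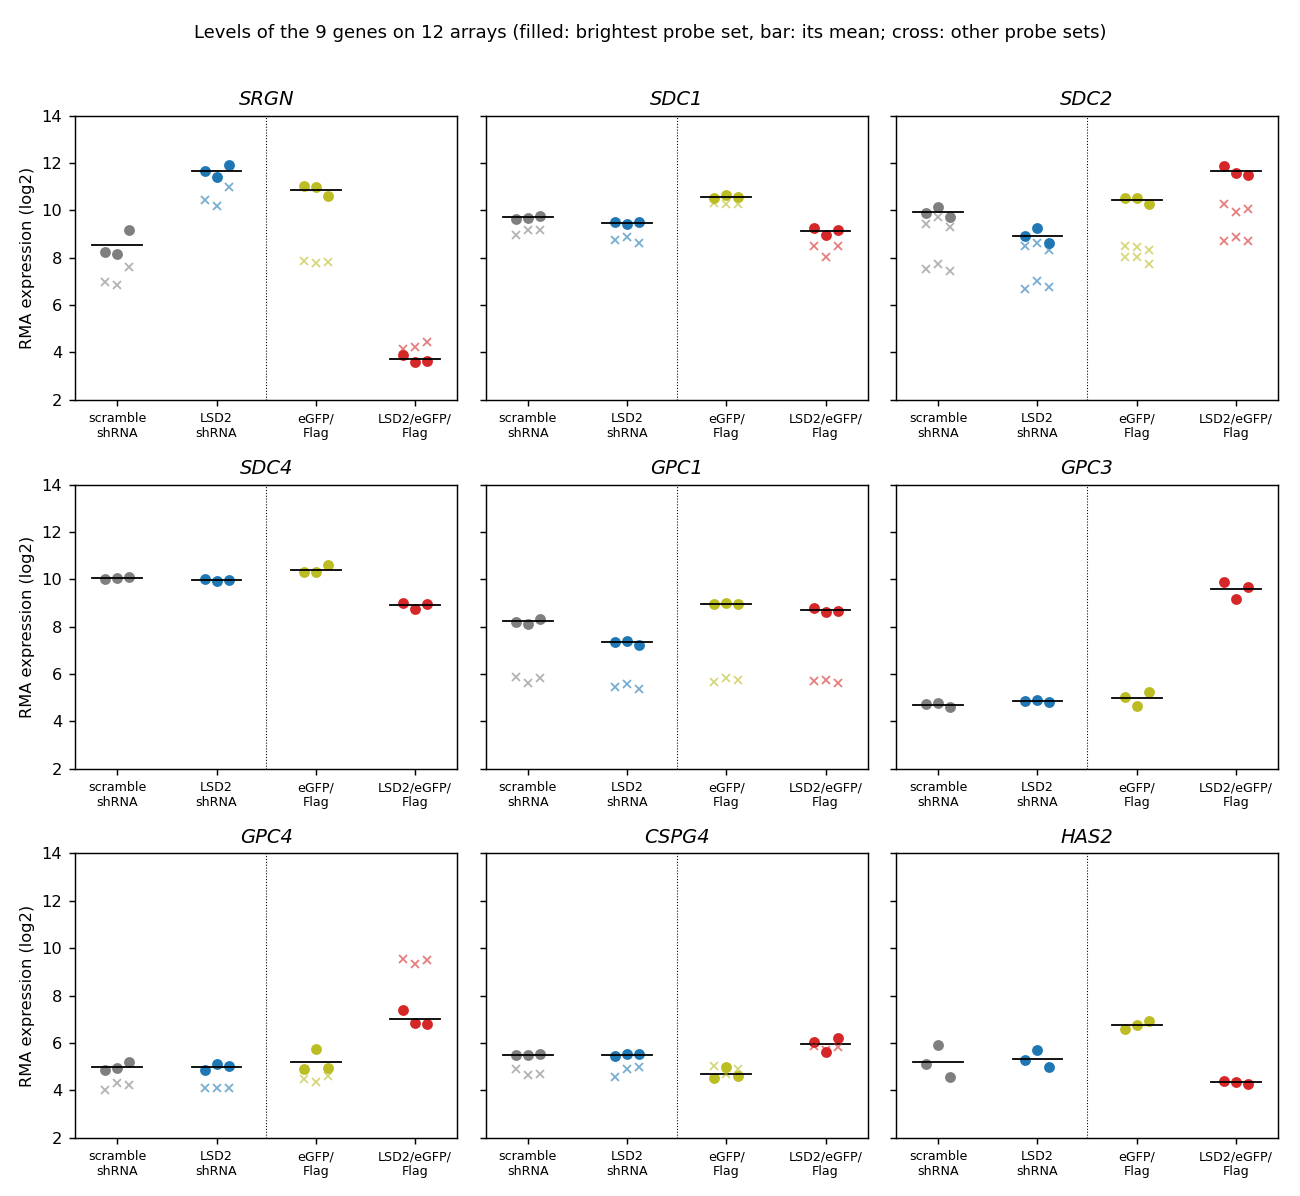
Log2 RMA level (vertical axis) of the 9 genes on every array (3 per group, horizontal axis), with dots for the brightest probe set, a bar at its group mean and crosses for other probe sets; a dotted line parts the shRNA and vector arrays. By its brightest probe set SRGN runs from 3.59 on an LSD2/eGFP/Flag array to 11.90 on an LSD2 shRNA array, and GPC3 stands at 9.15 to 9.90 only on LSD2/eGFP/Flag arrays among these 4 groups.

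Among the syndecans, SDC2 was the one with a called difference in the shRNA comparison, and its direction was again opposite in the 2 comparisons. SDC2 (syndecan 2, also known as fibroglycan, a heparan sulfate proteoglycan) read 9.90, 10.15 and 9.72 on scramble arrays and 8.93, 9.25 and 8.63 on LSD2 shRNA arrays. It read 10.52, 10.54 and 10.28 on eGFP/Flag arrays and 11.86, 11.58 and 11.50 on LSD2/eGFP/Flag arrays. The groups did not overlap in either comparison: SDC2 was lower with the LSD2 shRNA and higher with the LSD2/eGFP/Flag vector, so that it ran against serglycin both times. The differences were -0.99 ± 0.15 (adjusted p = 0.00137) and 1.2 ± 0.15 by limma. Its 2 dimmer probe sets gave -1.02 and -0.73 in the shRNA comparison and 1.67 and 0.83 in the vector comparison, so all 3 probe sets had the same directions.

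SDC1 (syndecan 1, the main syndecan of epithelial cells) was lower on the LSD2/eGFP/Flag arrays. Its brighter probe set read 9.65, 9.69 and 9.77 with scramble and 9.52, 9.43 and 9.50 with LSD2 shRNA. It read 10.51, 10.64 and 10.57 with eGFP/Flag and 9.26, 8.95 and 9.18 with LSD2/eGFP/Flag. The 3 LSD2 shRNA arrays were all below the 3 scramble arrays, but the difference of -0.22 ± 0.08 was not called (adjusted p = 0.125 by limma). The vector difference was -1.44 ± 0.08, with no overlap. The second SDC1 probe set gave -0.35 ± 0.12 (not called, adjusted p = 0.094 by limma) and -1.95 ± 0.12.

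SDC4 (syndecan 4, a component of focal adhesions that binds protein kinase C alpha) hardly moved in the shRNA comparison. It read 10.02, 10.05 and 10.09 with scramble and 10.03, 9.92 and 9.98 with LSD2 shRNA, a difference of -0.08 ± 0.09 with overlapping arrays (not called, adjusted p = 0.708 by limma). On the vector arrays it read 10.29, 10.31 and 10.60 against 9.0, 8.75 and 8.94. The vector groups did not overlap and the difference was -1.51 ± 0.09, close in size to that of SDC1. In the vector comparison SDC1 and SDC4 were thus both lower and SDC2 higher. SDC3 (syndecan 3), which is on the list of other surface proteoglycans, gave -0.12 ± 0.11 in the shRNA comparison (not called by limma) and was higher by 0.75 ± 0.11 in the vector comparison (adjusted p = 4.5e-05 by limma).

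GPC1 (glypican 1) was lower with the LSD2 shRNA. Its brighter probe set read 8.19, 8.13 and 8.34 on scramble arrays and 7.37, 7.41 and 7.23 on LSD2 shRNA arrays, with no overlap and a difference of -0.88 ± 0.08 (adjusted p = 3.7e-05 by limma). On vector arrays it read 8.97, 9.0 and 8.95 with eGFP/Flag and 8.80, 8.62 and 8.68 with LSD2/eGFP/Flag, a difference of -0.27 ± 0.08 that was called. Its second probe set gave -0.31 ± 0.09 (called, adjusted p = 0.0445 by limma) in the shRNA comparison. With the LSD2/eGFP/Flag vector the second probe set read 5.67, 5.85 and 5.76 against 5.70, 5.75 and 5.63, which overlap, with -0.07 ± 0.09 and no call. The vector call of GPC1 therefore held for 1 of its 2 probe sets, while the shRNA call held for both.

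GPC3 and GPC4 were low in 3 groups and high on the LSD2/eGFP/Flag arrays. GPC3 (glypican 3, an oncofetal glypican abundant in embryonic tissue and hepatocellular carcinoma) read 4.74, 4.79 and 4.61 with scramble and 4.85, 4.90 and 4.83 with LSD2 shRNA. It read 5.04, 4.66 and 5.25 with eGFP/Flag and 9.90, 9.15 and 9.68 with LSD2/eGFP/Flag. Only the last 3 arrays stood apart. GPC3 lay at the percentiles 11.3 to 19.2 of its array's genes in the other 3 groups and at 63.9 to 73.7 there. The vector difference was 4.59 ± 0.17. RMA values carry no detection calls and GPC3 was low with eGFP/Flag, so the fold of 24.1 has no measured floor under it. The shRNA difference was 0.15 ± 0.17 and not called (adjusted p = 0.697 by limma), although the 3 LSD2 shRNA arrays were above the 3 scramble arrays.

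GPC4 (glypican 4) had a pair of probe sets of nearly equal mean brightness that differed in size of change. The one taken for the fit read 4.87, 4.94 and 5.20 with scramble, 4.88, 5.10 and 5.04 with LSD2 shRNA, 4.90, 5.76 and 4.96 with eGFP/Flag, and 7.39, 6.83 and 6.81 with LSD2/eGFP/Flag. The other read 4.01, 4.29 and 4.24, then 4.08, 4.10 and 4.09, then 4.50, 4.37 and 4.6, and last 9.55, 9.33 and 9.50 in the same order of groups. In both probe sets the LSD2/eGFP/Flag arrays stood above all 9 others. The vector difference was 1.80 ± 0.21 by the first and 4.97 ± 0.09 by the other, and the shRNA groups overlapped in both. In the gene table GPC3 and GPC4 are neighbours on chromosome X with RNU6-203P, a small pseudogene, between them, and TFDP3, the next measured gene beyond GPC4, gave -0.16 in the vector comparison and was not called.

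CSPG4, a proteoglycan of pericytes, glial precursors and melanoma cells, was higher on the LSD2/eGFP/Flag arrays. Its brighter probe set read 5.49, 5.50 and 5.54 with scramble and 5.46, 5.54 and 5.54 with LSD2 shRNA, a difference of 0.00 ± 0.14 with overlapping arrays. It read 4.54, 4.97 and 4.62 with eGFP/Flag and 6.06, 5.62 and 6.19 with LSD2/eGFP/Flag, which do not overlap, a difference of 1.25 ± 0.14. The second probe set gave 0.07 ± 0.12 and 0.94 ± 0.12. On LSD2/eGFP/Flag arrays CSPG4 was thus higher than on eGFP/Flag arrays by both probe sets. Its levels were low: the brighter probe set lay at the percentiles 10.4 to 15.6 of its array's genes with eGFP/Flag and 24.6 to 31.5 with LSD2/eGFP/Flag, with no detection call.

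HAS2 had the widest range of the 9 genes on the scramble arrays. It read 5.13, 5.90 and 4.56 with scramble and 5.28, 5.69 and 4.98 with LSD2 shRNA, a difference of 0.12 ± 0.26 that lay within the spread of the arrays and was -0.20 without scramble array 3 and -0.07 without LSD2 shRNA array 2. It read 6.61, 6.75 and 6.91 with eGFP/Flag and 4.41, 4.36 and 4.25 with LSD2/eGFP/Flag. The vector groups were well apart, with a difference of -2.42 ± 0.26. HAS2 lay at the percentiles 37.3 to 40.1 of its array's genes with eGFP/Flag and 6.84 to 8.57 with LSD2/eGFP/Flag, with no detection call. CD44, the hyaluronan receptor, gave -0.11 in the shRNA comparison (not called by limma) and fell by 8.42 ± 0.10 in the vector comparison (adjusted p = 1.9e-15 by limma). The brightest CD44 probe set gave the largest size there, and the other 7 gave -5.23, -4.77, -4.77, -4.11, -1.81, -1.52 and -0.05.

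In the shRNA comparison 1 of the 9 members was called higher, 2 were called lower and 6 were not called. Over all genes 10.5% were called there, 5.0% higher and 5.53% lower. In the vector comparison 4 members were called higher and 5 lower, where 57.0% of all genes were called, 30.9% higher and 26.1% lower. Array values did not overlap between groups for 5 members in the shRNA comparison (28.3% of all genes) and for all 9 in the vector comparison (61.1% of all genes). The median difference of the members was 0.00 in the shRNA comparison and -0.27 in the vector comparison, beside -0.01 and 0.01 over all genes. The members just inside and just outside the call in the shRNA comparison, by adjusted p, were SDC2, at -0.99, and SDC1, at -0.22. SRGN, SDC2 and GPC1 were the members called in both comparisons, the first 2 in opposite directions and GPC1 lower in both.

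**Figure D3:**
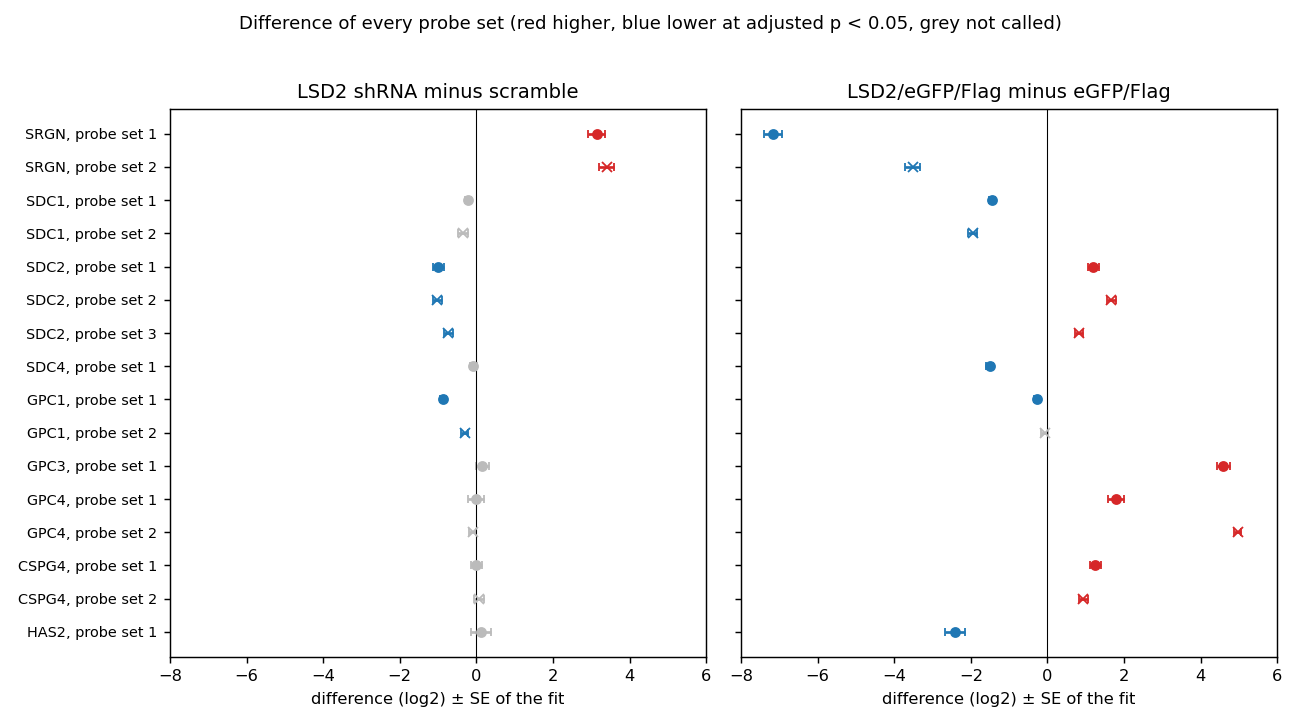
Difference of group means (horizontal axis, log2, with the SE of the limma fit) for every probe set of the 9 genes, in the shRNA comparison on the left and the vector comparison on the right. Red marks were called higher, blue lower, grey not called, and crosses are the dimmer probe sets. On the right the SRGN probe sets lie at -7.17 and -3.52 and the GPC4 probe sets at 1.80 and 4.97, and on the left the SRGN probe sets lie at 3.14 and 3.40, apart from all others.

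To set levels across both sets, all 12 arrays were quantile-normalized together, which does not undo a separate earlier processing, so the orders are a description. SRGN was highest with LSD2 shRNA (12.07 ± 0.27, SD, n = 3), then eGFP/Flag (10.38 ± 0.23), scramble (8.94 ± 0.62) and LSD2/eGFP/Flag (3.28 ± 0.20), and no neighbours in that order overlapped. SDC2 ran LSD2/eGFP/Flag (11.22 ± 0.19), scramble (10.39 ± 0.21), eGFP/Flag (9.97 ± 0.14) and LSD2 shRNA (9.39 ± 0.31), also without overlap between neighbours. SDC1 and GPC1 had overlapping arrays in their 2 control groups, at 10.18 ± 0.06 and 10.08 ± 0.07 for SDC1 and at 8.64 ± 0.16 and 8.58 ± 0.05 for GPC1. SDC4 was 10.53 ± 0.05 with scramble, 10.45 ± 0.05 with LSD2 shRNA (groups that overlap in the deposited values), 9.92 ± 0.16 with eGFP/Flag and 8.46 ± 0.12 with LSD2/eGFP/Flag.

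GPC3 and GPC4 were highest with LSD2/eGFP/Flag, at 9.13 ± 0.40 and 6.75 ± 0.28. Their other 3 groups followed at 4.84 to 4.98 for GPC3 and at 5.09 to 5.12 for GPC4, and neighbours in that order overlapped. CSPG4 was lowest with eGFP/Flag (4.53) and overlapped among the other 3 groups, whose means were 5.62 to 5.81. HAS2 was highest with eGFP/Flag (6.60) and lowest with LSD2/eGFP/Flag (4.09), and the shRNA groups between them overlapped at 5.43 and 5.33. The 2 control groups stood apart for SRGN, SDC2, SDC4, CSPG4 and HAS2 on this scale, and separate processing and the different vectors cannot be told apart there.

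The genes with a pattern most like each member were taken by Pearson's r of deviations from the mean of each set of 6 over the 12 arrays. The differences between the groups enter that r, so it is no independent measure. For SRGN they were SMAGP (0.995), NAMPT (0.993) and ZFP36L1 (0.991). For SDC1 they were FXYD5 (0.994) and the keratins KRT18 and KRT8 (both 0.992). SDC4 had PCYT1A (0.995), HBEGF (0.994) and S100A11 (0.993), of which HBEGF is a growth factor that binds heparan sulfate. GPC3 had ITM2A (0.998), IQGAP2 (0.998) and CDO1 (0.997), and GPC4 had ZIC1 (0.985), GBX2 (0.980) and RPL35 (0.976). For CSPG4 the list was TENM4 (0.995), RPL11 (0.994) and IRF8 (0.990), and for HAS2 it was AGR2 (0.990), HEG1 (0.982) and SNX7 (0.976). The 2 members lower with the LSD2 shRNA had the least close companions at the top of their lists, with PRKRA (0.971), NCK2 (0.968) and MRPL49 (0.965) for SDC2 and DHRS7B (0.963), COPS3 (0.959) and WRAP53 (0.952) for GPC1.

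Few genes beside the members on their chromosomes were measured, 8 of 36 neighbouring places, GPC3 and GPC4 among them. VPS26A, next to SRGN, differed by 0.20 ± 0.06 in the shRNA comparison (not called, adjusted p = 0.0694 by limma) and by 0.00 in the vector comparison, where SRGN differed by -7.17. CPQ, beside SDC2, gave -0.23 in the shRNA comparison without a call and fell by 1.2 ± 0.13 in the vector comparison (adjusted p = 1.7e-06 by limma), where SDC2 was higher. GPC1-AS1 gave -0.17 and 0.13, RBPJL beside SDC4 gave 0.00 in both comparisons, and IMP3 beside CSPG4 gave 0.05 and -0.09, all without a call. In the vector comparison the only measured neighbour of each of SRGN, SDC4, GPC1 and CSPG4 was not called, where 57.0% of all genes were called. GPC1 itself was called there by its brighter probe set and not by the other. So few measured neighbours do not describe the regions around the members.

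The genes that build, modify, bind and break down proteoglycans were grouped in 11 lists with 160 measured genes. With the LSD2 shRNA 6 of them rose and 13 fell, which is 11.9% where 10.5% of all genes were called. With the LSD2/eGFP/Flag vector 43 rose and 47 fell, which is 56.2% where 57.0% of all genes were called. The lists together were thus called about as often as all genes, and the counts below are read against those shares.

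Chain building enzymes held both genes that start a chondroitin sulfate chain. Of 15 linker and polymerization enzymes, 2 rose and 2 fell with the LSD2 shRNA. CSGALNACT1 and CSGALNACT2, which add the first N-acetylgalactosamine of a chondroitin chain, rose by 0.85 ± 0.22 and 0.56 ± 0.12 (adjusted p = 0.0228 and 0.00949 by limma). The call of CSGALNACT1 was lost without scramble array 1 or 3 or LSD2 shRNA array 1 or 2, with adjusted p of 0.0606 to 0.0792 by limma. Without scramble array 1 or LSD2 shRNA array 1 the list held 2 calls. In the vector comparison 2 enzymes rose and 9 fell, among them CSGALNACT2 at -2.13 ± 0.12 and CSGALNACT1 at -1.12 ± 0.22. EXT1, a subunit of the heparan sulfate polymerase, gave -0.13 with the LSD2 shRNA (not called) and fell by 2.01 ± 0.08 in the vector comparison, with -0.74 by its other probe set. EXT2, the other subunit, gave -0.29 ± 0.09 without a call (adjusted p = 0.0571 by limma) and -0.24 ± 0.09 with one (adjusted p = 0.0334 by limma), which was lost when any 1 of the 3 eGFP/Flag arrays or LSD2/eGFP/Flag array 1 or 2 was left out (0.0545 to 0.0967). The other EXT2 probe set gave -0.22 without a call and -0.42 with one (adjusted p = 3.9e-04 by limma). XYLT1, which attaches the first xylose, rose by 1.49 ± 0.24 in the vector comparison.

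Of 11 enzymes that modify heparan sulfate, 1 fell with the LSD2 shRNA. NDST1, which removes acetyl groups and adds sulfate, fell by 0.44 ± 0.08 (adjusted p = 0.00496 by limma), while its other probe set gave -0.01. With 1 array left out (LSD2 shRNA array 3 or eGFP/Flag array 2 or 3) the count was 2. With the LSD2/eGFP/Flag vector 4 rose and 4 fell. The sulfotransferase HS3ST3A1 rose by 4.64 ± 0.15 (adjusted p = 1.1e-11 by limma) and HS3ST1, of the same family, fell by 3.13 ± 0.26, although its other probe sets gave -0.06 and 0.12. SULF1, which removes sulfate outside the cell, rose by 2.24 ± 0.14, with 2.59 and 1.33 by its other probe sets, and the epimerase GLCE fell by 1.08 ± 0.15. NDST1 fell by 0.24 ± 0.08 (adjusted p = 0.0257 by limma), a call lost without eGFP/Flag array 1 or LSD2/eGFP/Flag array 1 or 3 (0.06 to 0.126). Its other probe set gave -0.08 there without a call.

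Of 7 chondroitin and dermatan sulfate modifying enzymes, 1 rose and 2 fell with the LSD2 shRNA. The sulfotransferase CHST11 rose by 0.50 ± 0.11 (adjusted p = 0.012 by limma) and CHST3 fell by 0.39 ± 0.10 (adjusted p = 0.0208 by limma). Both calls were lost without scramble array 1 or LSD2 shRNA array 1, where no gene of the list was called, CHST11 also without LSD2 shRNA array 3 and CHST3 also without scramble array 3 or LSD2 shRNA array 2, where 1 gene was. Against eGFP/Flag, 4 rose and 1 fell, among them CHST7 at 1.27 ± 0.11 and UST at 1.14 ± 0.19, with 0.26 by the other probe set of UST. Of 11 genes of precursor and sulfate supply, 1 fell with the LSD2 shRNA, the sulfate transporter SLC26A2, by 0.53 ± 0.10 (adjusted p = 0.00491 by limma), and the count was 2 without scramble array 3 or LSD2 shRNA array 2. On the vector arrays 2 rose and 6 fell, with the nucleotide sugar transporter SLC35D2 at -4.55 ± 0.14 (-2.90 by its other probe set) and UGP2, which makes UDP-glucose, at -1.03 ± 0.07.

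Other core proteins are given next, where 10.5% of all genes were called in the shRNA comparison and 57.0% in the vector comparison. Of 9 other surface and part-time proteoglycans, 2 rose with the LSD2 shRNA, CSPG5 by 0.85 ± 0.20 (adjusted p = 0.0146 by limma) and NRP1, a co-receptor for semaphorins and VEGF, by 0.75 ± 0.14 (adjusted p = 0.00384 by limma). Their other probe sets gave 0.15 for CSPG5 and -0.24 and 0.06 for NRP1, and the CSPG5 call was lost without scramble array 3 or LSD2 shRNA array 1 or 2 (0.0518 to 0.0661). The count for the list was 1 without scramble array 3 or LSD2 shRNA array 1. In the vector comparison 5 rose and 2 fell: NRP1 fell by 4.69 ± 0.14 and THBD, thrombomodulin, fell by 3.98 ± 0.10, while PTPRZ1 rose by 1.78 ± 0.17 and CSPG5 by 1.58 ± 0.20. Of 22 secreted and matrix proteoglycans, COL18A1 alone fell with the LSD2 shRNA, by 0.44 ± 0.12 (adjusted p = 0.039 by limma). That call was lost without scramble array 1 or 2, LSD2 shRNA array 1 or 3 or LSD2/eGFP/Flag array 1 or 3 (0.0508 to 0.165), and without scramble array 3 the list held 2. With the LSD2/eGFP/Flag vector 4 of the 22 rose and 4 fell (36.4%), with versican (VCAN) at 5.6 ± 0.12 (adjusted p = 1.3e-13 by limma) and 2.01 to 5.44 by its other probe sets, LUM at 1.94 ± 0.35 and SPOCK1 at -1.78 ± 0.08.

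None of the 15 hyaluronan genes was called by limma with the LSD2 shRNA, and 0 had an unadjusted p under 0.05. Of these genes 2 rose and 2 fell in the vector comparison. Beside CD44, CEMIP, a hyaluronan-degrading protein, fell by 3.08 ± 0.42, and the hyaluronan receptor HMMR rose by 1.37 ± 0.11. Of 17 genes of shedding and breakdown, 2 lysosomal sulfatases fell with the LSD2 shRNA, GALNS by 0.64 ± 0.11 and SGSH by 0.52 ± 0.08 (adjusted p = 0.00222 and 0.0011 by limma). Heparanase (HPSE) gave -0.32 ± 0.13 (not called, adjusted p = 0.148 by limma) and fell by 0.62 ± 0.13 in the vector comparison (adjusted p = 9.9e-04 by limma). Against eGFP/Flag, 6 rose and 4 fell, among them the syndecan sheddase ADAM10 at -1.30 ± 0.07, its inhibitor TIMP3 at 1.21 ± 0.15, IDS at -1.87 ± 0.08 and GALNS at 1.35 ± 0.11. The other probe sets gave 1.82, 2.33 and 1.40 for TIMP3 and -2.21 to -0.01 for IDS. ADAM17, on the same list, rose by 0.58 ± 0.07, with 0.54 and 0.32 by its other probe sets.

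None of 12 cytoplasmic partners of the syndecans was called by limma with the LSD2 shRNA (3 had an unadjusted p under 0.05), and 3 rose and 6 fell in the vector comparison. PRKCA, the kinase bound by syndecan 4, fell by 2.68 ± 0.14, and the actin-binding proteins MSN and ACTN4 fell by 2.40 ± 0.10 and 1.31 ± 0.07, while RDX rose by 1.13 ± 0.07. SDCBP (syntenin), which binds all syndecan tails, gave 0.21 ± 0.07 with the LSD2 shRNA (not called, adjusted p = 0.0778 by limma) and -0.18 ± 0.07 in the vector comparison (adjusted p = 0.0437 by limma), a call that several single arrays decided (0.0502 to 0.139 without them). Of 15 proteins that serglycin packs in granules of blood cells, none was called by limma with the LSD2 shRNA and 0 had an unadjusted p under 0.05. On the vector arrays ELANE rose by 0.27 ± 0.06 and 2 fell, among them GNLY by 0.24 ± 0.08, with 0.09 and no call by its other probe set. The GNLY call was lost without eGFP/Flag array 1 or 3 or LSD2/eGFP/Flag array 2 (adjusted p of 0.0511 to 0.095 by limma). The count for the list was 1 without eGFP/Flag array 3 or LSD2/eGFP/Flag array 2. No measured cargo gene was called with a difference of at least 1, where 0.527% of all genes were in the shRNA comparison and 18.3% in the vector comparison. A list of 15 genes is too short to show a lower share in the shRNA comparison, and a link to SRGN was not tested.

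The heparin-binding ligands and co-receptors held the largest changes among the lists with the LSD2 shRNA. Of 26 genes, the most measured in any of the lists, 1 rose and 4 fell. Of these, 3 differed by at least 1, where 0.527% of all genes were called with such a difference. The chemokine CCL2 fell by 1.67 ± 0.13 (adjusted p = 1.4e-05 by limma), fibronectin (FN1) fell by 1.03 ± 0.22 (adjusted p = 0.0107 by limma), and pleiotrophin (PTN), a ligand of heparan and chondroitin sulfate, rose by 1.23 ± 0.15 (adjusted p = 2.1e-04 by limma). The other PTN probe sets gave 1.52, 2.06 and -0.04, and those of FN1 gave -0.92, -1.01, -1.09, -0.06 and -0.07. In the vector comparison 10 rose and 7 fell. THBS1 fell by 6.97 ± 0.24, PTN by 3.65 ± 0.15, the coagulation inhibitor TFPI by 3.61 ± 0.28 and HBEGF by 3.16 ± 0.10. The other probe sets gave -3.51, -1.94, -0.05 and -0.20 for THBS1, -5.08, -5.76 and -0.24 for PTN, and -3.17 and -0.22 for HBEGF. With the LSD2/eGFP/Flag vector 26.1% of all genes fell, and SRGN was lower. Of the 6 listed genes that rose with the LSD2 shRNA, PTN, NRP1, CSGALNACT1 and CSGALNACT2 fell with that vector, while CSPG5 and CHST11 rose by 1.58 and 0.45. For NRP1 this holds for the brightest of 3 probe sets: the others gave -0.24 and 0.06, then -4.23 and -0.14. The rises of CSGALNACT1, CSPG5 and CHST11 with the LSD2 shRNA were each not called without 1 of several arrays named above. Of the 13 listed genes that fell with the LSD2 shRNA, FN1, FAM20B, NDST1 and CHST3 also fell with the LSD2/eGFP/Flag vector. CCL2 and SLC26A2 were not called there, and the others rose, where 30.9% of all genes rose. For NDST1 both falls hold for the brighter probe set: the other gave -0.01 and -0.08. The shRNA falls of CHST3 and COL18A1 and the vector fall of NDST1 were also lost without certain single arrays named above.

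**Figure D4:**
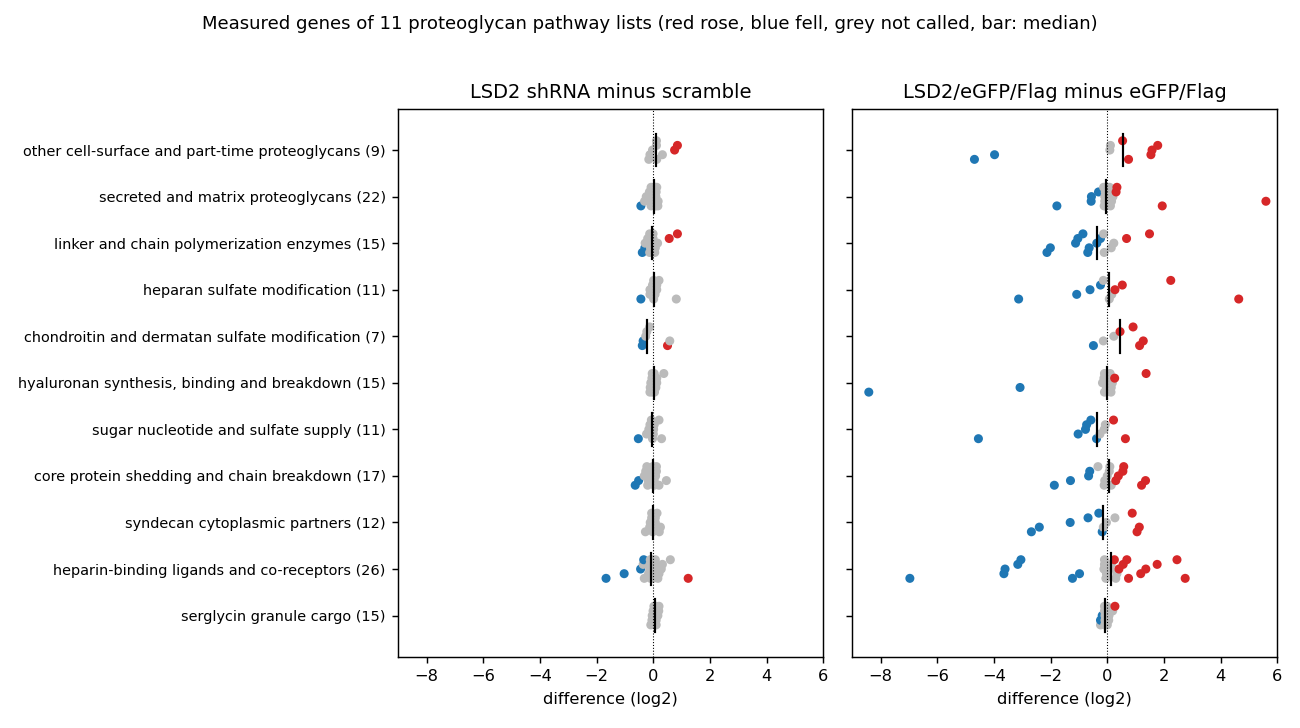
Difference of group means (horizontal axis, log2) of each measured gene in the 11 pathway lists (rows, with the number measured), for the shRNA comparison on the left and the vector comparison on the right. Red points rose and blue points fell (limma, adjusted p under 0.05), grey points were not called, and black bars mark medians. On the left the points beyond 1 on either side are CCL2, FN1 and PTN, and on the right CD44 lies at -8.42 and VCAN at 5.6.

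Markers of blood and mast cells, the usual source of serglycin, are given beside SRGN. Of 15 measured markers, none rose and 1 fell with the LSD2 shRNA (6.67%, where 10.5% of all genes were called). The mean of the list was 5.74 to 5.76 on scramble arrays and 5.65 to 5.74 on LSD2 shRNA arrays. That single call was lost without scramble array 1 or 2 or LSD2 shRNA array 1 or 2, and without LSD2/eGFP/Flag array 2 there were 2. The pan-leukocyte marker PTPRC stood at group means of 2.99, 3.02, 4.20 and 4.00 in the order scramble, LSD2 shRNA, eGFP/Flag and LSD2/eGFP/Flag. With the LSD2/eGFP/Flag vector 2 rose and 3 fell (33.3%, where 57.0% of all genes were called). LAPTM5 stood at 12.12 and 6.0 and LCP1 at 9.99 and 6.45 on eGFP/Flag and LSD2/eGFP/Flag arrays. KIT stood at 5.03 and 10.64 and CORO1A at 5.66 and 7.17. The mean of the list was 6.32 to 6.42 and 6.12 to 6.25 on those arrays, without overlap. The median difference of its genes was -0.01 and 10 of the 15 were not called, so the lower mean is not a fall of the list as a whole. The part of these markers in the SRGN differences was not tested.

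The other marker lists are read against the 10.5% of all genes called with the LSD2 shRNA. Of the 18 MDA-MB-231 markers 3 rose and 1 fell (22.2%), of 13 luminal breast markers 2 rose (15.4%), of 9 endothelial markers 1 rose (11.1%), of 12 fibroblast and pericyte markers 1 rose (8.33%), and of 11 neural markers none was called by limma (1 had an unadjusted p under 0.05). Without LSD2/eGFP/Flag array 2 the luminal count was 4, and the fibroblast call was lost without any 1 of the 6 shRNA arrays or LSD2/eGFP/Flag array 1. Against eGFP/Flag, where 57.0% of all genes were called, 4 luminal markers rose and 5 fell (69.2%), and 1 endothelial marker rose and 2 fell (33.3%). There 4 fibroblast and pericyte markers rose and 1 fell (41.7%), and 6 neural markers rose and 2 fell (72.7%). The fibroblast count was 3 without eGFP/Flag array 1 or LSD2/eGFP/Flag array 1 or 3. The share of any other cell type in an array was not tested, and fewer cells of a type and less RNA per cell cannot be told apart in these bulk samples.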

How the data were processed

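The authors deposited log2 expression values for 22277 probe sets on 12 arrays, made with RMA per the submitters' processing notes. Which program ran RMA and with which probe annotation is not stated in those sources. RMA values carry no detection calls, arrays have no read depth, and precision is limited by the number of arrays. Of the probe sets, 62 were controls, 19070 named 1 gene in the platform annotation, 1043 named several and 2102 had none listed. The identifiers of 19058 matched a RefSeq table of GRCh38.p14. Only probe sets naming 1 gene were used, and each of 4310 genes with several was represented by the probe set with the highest mean, giving 11963 genes. All 12 arrays were fitted with a mean per group (limma 3.58.1, R 4.3.3, lmFit with eBayes, whose prior had 4.82 degrees of freedom beside 8 residual ones), two-sided, with Benjamini-Hochberg adjustment over all genes and a call at an adjusted p under 0.05; an adjusted p in the text is from that fit unless another is named: a refit without 1 array or with another probe-set rule, or, for a gene's further probe sets, the same model fitted to all single-gene probe sets and adjusted over them. "Rose" and "fell" mean called. An SE belongs to the fitted difference and an SD to the arrays of a group.

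On simulated data of these genes, the fit recovered 69.4% of changes of 0.5 and 95.4% of changes of 1 in the shRNA comparison, with 3.85% of calls false, and 73.3% and 98.4% in the vector comparison, with 4.79% false. Changes of 0.5, 1 and 2 were put in 72, 65 and 63 genes of the shRNA comparison and 75, 63 and 62 of the vector comparison, with independent normal noise. In the data 10.5% and 57.0% of genes were called, far more than were changed in the simulation, so these rates do not carry over to the data. The members and lists were chosen with earlier results of these data known. From each list the text names up to 4 called genes with the largest differences of at least 1 per comparison, otherwise up to 2, with CD44, SDC3, EXT1, EXT2, NDST1, HPSE and SDCBP named whatever they showed. GPC6, HAS3 and SULF2 were chosen likewise and are not analysed here. The 3 closest genes of each member and its 2 neighbours on each side were also chosen by rule. Marker genes given by level, ADAM17, and the summary sentences on the listed genes that rose or fell with the LSD2 shRNA, were picked after their values were seen. Alternatives were other scalings, probe-set rules, filters, fits and leaving out each array.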

Additional observations from a re-analysis of the deposited data

How the results depend on the processing

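The calls of the 9 members held in the alternatives tried, apart from GPC1 in the vector comparison, and no called member changed direction. SRGN ranged from 2.96 to 3.47 in the shRNA comparison and from -7.31 to -3.52 in the vector comparison, the latter its second probe set, and GPC4 ranged from 1.61 to 4.97 in the vector comparison. GPC1 lost that call with the mean of its probe sets (-0.17, adjusted p = 0.0661 by limma) and with its second probe set alone (-0.07). Uncalled values in the shRNA comparison moved most for HAS2 (0.12), which ranged from -0.20 without scramble array 3 to 0.47 without scramble array 2 and was -0.07 without LSD2 shRNA array 2, so it has no settled direction. GPC4 ranged from -0.09 to 0.10 there. Other uncalled values moved: SDC1 in the shRNA comparison to -0.28 with the mean of its probe sets and -0.35 with the second alone, and CSPG4 to 0.04 with equal medians and 0.07 with its second probe set. With the dimmest genes (a share of 0.25) left out, 6 members were called in the vector comparison, since the others were not tested.

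Among all genes, 1260 were called in the shRNA comparison, 2351 with array weights, 563 at an adjusted p under 0.01 and 752 to 1347 with 1 array left out, the lowest counts being 752 without scramble array 1, 774 without LSD2 shRNA array 1 and 832 without scramble array 2. The 19 pathway genes called there became 37 with array weights, 10 at an adjusted p under 0.01, and 12 without LSD2 shRNA array 1 to 22 without eGFP/Flag array 3. With equal medians, the split of calls went from 598 higher and 662 lower to 703 and 526 in the shRNA comparison, and from 3701 and 3122 to 2920 and 4294 in the vector comparison, where the median of all genes moved from 0.01 to -0.12. Quantile normalization of all 12 arrays was chosen after the data were seen. The causes were not tested.

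Arrays that share a number did not deviate together throughout. Correlations of their deviations from group means were 0.02, 0.51 and 0.45 in the shRNA comparison and -0.14, 0.17 and 0.18 in the vector comparison. Between numbers 2 and 3 they were -0.48 and -0.46 in the shRNA comparison and -0.24 and -0.23 in the vector comparison. Between number 1 and the others they were -0.09 to 0.07 and 0.02 to 0.10. Arrays numbered 2 and 3 thus deviated with their own number and those numbered 1 did not. The main fit took no pairing, and whether the numbers pair the arrays was not tested. With the replicate number as a block, 1640 genes were called in the shRNA comparison and 6962 in the vector comparison, and the counts of called members stayed at 3 and 9.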
